A study of Mus musculus with 5 samples.

Results

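The transcription factor p53 (gene Trp53) and 9 of its target genes were followed across mouse embryonic stem cell (ESC) lines: Trp53, Cdkn1a, Mdm2, Ccng1, Bbc3, Bax, Pmaip1, Gdf15, Perp and Trp53inp1. The members were taken by name: each probe that the scanner files name as a member, control spots aside, was used. That gave 10 of the 27670 gene names on the array, measured by 14 of its 41174 probes. All 14 probes were well above background in all 5 lines, so no member was lost to a filter on dim signals.

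RNA was measured in 5 ESC lines on one-colour Agilent arrays, with 1 array per line, to ask what loss of ECAT11 (L1td1), a transcript enriched in ESCs, does to gene expression. The wild-type lines were RF8, a male line of 129sv origin, and #620-2, a female line of C57BL6/129sv origin. The ECAT11EGFP/EGFP lines were #620-6 (female), #757-1 and #757-2 (both male), all of C57BL6/129sv origin, and in them a cassette with EGFP and a puromycin resistance gene replaced ECAT11 coding sequence on both alleles. RF8 is the parental line in which the locus was targeted, and all knock-in alleles descend from 1 targeted clone. The other 4 lines were derived from blastocysts of intercrossed heterozygous mice. All 5 lines were grown on gelatin with leukaemia inhibitory factor and received no treatment, so no DNA damaging agent was given. Nothing states that a line was cultured more than once, and the lines are the replicates.

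In cells without damage p53 protein is kept low by Mdm2, a ubiquitin ligase that is itself a p53 target, and damage or oncogene signals free p53 to switch on genes for cell cycle arrest, repair and apoptosis. Much of this control acts on the protein, which was not measured. ESCs have a short G1 phase, and p53 in them is also known to act on genes of the pluripotent state.

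Sequences are shown first for the promoters, since p53 acts by binding DNA. RefSeq promoter windows (GRCm38.p6, from 250 bases before to 50 bases after an annotated start) were found for 7 of the 10 members, namely Trp53, Cdkn1a, Mdm2, Ccng1, Bbc3, Bax and Gdf15. They were searched for the p53 consensus decamer, which reads as the same pattern on both strands, so 1 search covers both. At least 1 decamer lay in the windows of 5 of these 7 genes, against 9.55% of the 27025 genes with a window. These are the sites of Trp53, Mdm2, Ccng1 and Bax, each with 10 bases on either side, written along the strand of the gene with the decamer in capitals.
Trp53 (chr11:69580274-69580303, plus strand): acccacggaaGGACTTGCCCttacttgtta
Mdm2 (chr10:117710925-117710954, minus strand): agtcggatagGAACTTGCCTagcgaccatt
Ccng1 (chr11:40755452-40755481, minus strand): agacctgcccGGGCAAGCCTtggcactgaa
Bax (chr7:45467080-45467109, minus strand): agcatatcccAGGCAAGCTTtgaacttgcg

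Cdkn1a was the only member with 2 decamers at most 13 bases apart, an arrangement held by 24 of the 32851 windows (0.0731%). Its decamers are separated by 12 bases, and the 10 bases after the second one miss the consensus at 1 position. Another window of Cdkn1a, at a different annotated start (chr17:29093519-29093818), held 0 decamers. The 250 bases before the annotated start of the window with the pair are shown because Cdkn1a is the target most often used as a readout of p53.
Cdkn1a (chr17:29090729-29090978, plus strand): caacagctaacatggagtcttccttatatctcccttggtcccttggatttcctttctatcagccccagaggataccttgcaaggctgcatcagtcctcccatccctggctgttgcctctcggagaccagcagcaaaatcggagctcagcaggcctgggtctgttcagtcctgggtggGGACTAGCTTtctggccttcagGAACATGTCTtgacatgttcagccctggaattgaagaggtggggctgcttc
A match describes these letters and does not show that p53 was bound. Well-known p53 sites of several members lie in introns, outside these windows.

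The signals come from 60-base probes, whose positions the files give on the mm7 build. For Trp53, Mdm2 and Bax a probe within coding sequence is shown, since these are the transcription factor, its ligase and the pore-forming effector of its death programme.
Trp53 probe (mm7 chr11:69671206-69671265, plus strand): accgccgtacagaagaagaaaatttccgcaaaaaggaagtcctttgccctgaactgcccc
Mdm2 probe (mm7 chr10:117204040-117204099, minus strand): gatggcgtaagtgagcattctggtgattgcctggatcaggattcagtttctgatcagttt
Bax probe (mm7 chr7:41641827-41641982, minus strand): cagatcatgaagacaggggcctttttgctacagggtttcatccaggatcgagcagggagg
The Bax probe spans more genome than its 60 bases. The dimmer Trp53inp1 probe is a tandem repeat, with 33 of 34 bases equal at a distance of 26 and the unit agtactaatacttaccacagcaggcg, so its signal is less certain to come from 1 transcript.

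Values below are log2 intensities of a probe after division by the 75th percentile of its array, so 0 is that percentile. They compare lines for 1 probe, not genes with each other. In bulk RNA, fewer cells that express a gene and less RNA per cell cannot be told apart. RF8, #620-2 and #620-6 shared a slide, and the #757 lines shared another. The extraction put 26371 to 27144 probes well above background in the first 3 lines and 22061 and 21250 in the #757 lines, with no saturated spot. Spots of one probe repeated on an array had a median SD of 0.057 to 0.078 over 245 probes. All 8 ESC markers examined, among them Pou5f1, Nanog and Sox2, were well above background in every line. ECAT11 itself was not analysed here, so the labels could not be checked on its own transcript.

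The 10 genes were expressed in every line, and none passed the test between genotypes. A call needed an adjusted p under 0.05 in limma over all 28972 probes kept and a change of more than 2-fold. That rule called 0 of the 10 members, as it called 1 probe of all (0.00345%). At an unadjusted p under 0.05, 1 member passed, Perp, where it was lower in ECAT11EGFP/EGFP, against 7.61% of all probes (2206), with 4.03% higher and 3.59% lower. The median difference of the members, ECAT11EGFP/EGFP minus wild type, was -0.077 on the log2 scale, beside -0.023 over all probes kept. For 2 members, Pmaip1 and Perp, the values of the genotypes did not overlap, against 23.6% of the 28898 probes with a value on every array. Exact permutation tests of single members, two-sided, gave p from 0.1 to 1, and 0.1 is the smallest that 2 lines against 3 allow.

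**Figure D1:**
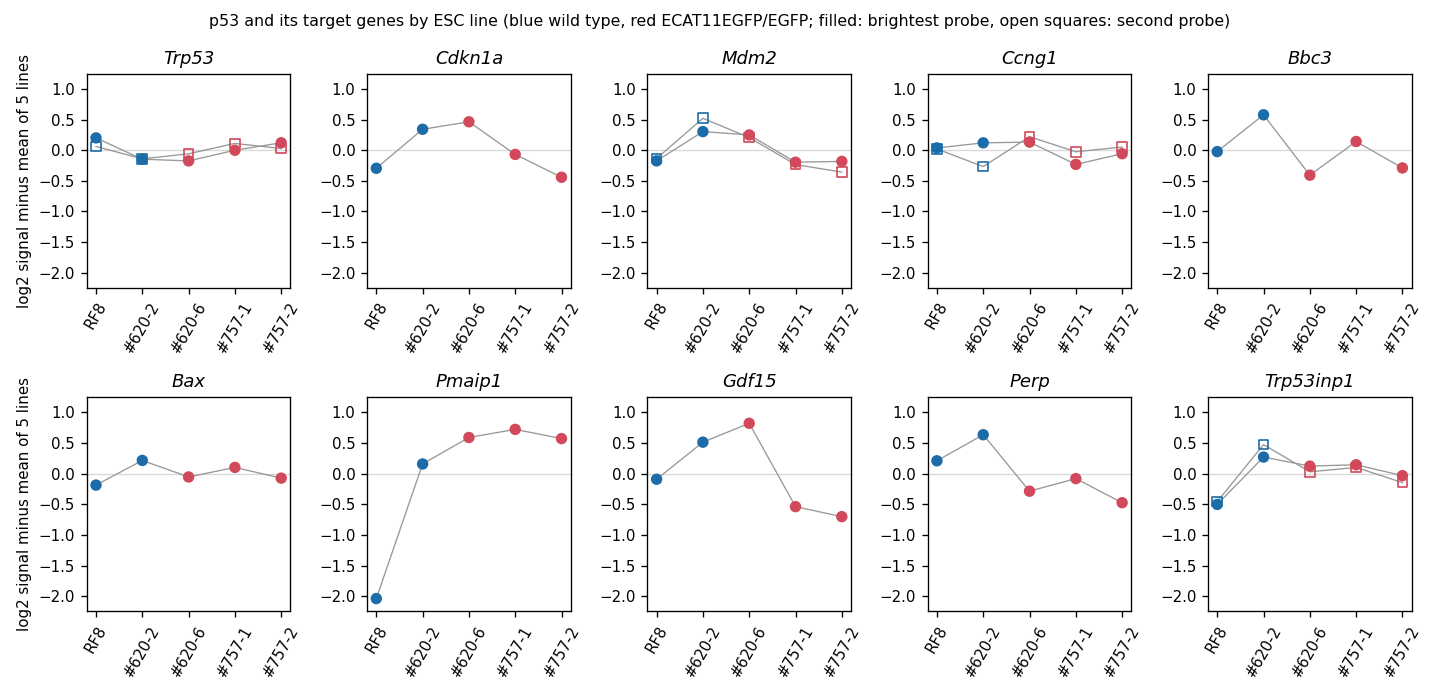
Log2 signal of each member in each ESC line, minus the mean of that probe over the 5 lines, with blue for wild type and red for ECAT11EGFP/EGFP. Filled circles are the brightest probe of a gene and open squares a second probe. Pmaip1 stands out through RF8, at 1.18 against 3.37 to 3.94 in the other lines, while the brightest probes of Trp53, Ccng1, Bax and Mdm2 each span at most 0.50 on the log2 scale and the second Mdm2 probe spans 0.88.

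Trp53, the gene of the transcription factor, was at 2.52 in RF8, 2.18 in #620-2, 2.15 in #620-6, 2.32 in #757-1 and 2.44 in #757-2 by its brightest probe. RF8 was the highest line and #620-6 the lowest, the genotypes overlapped, and the whole span was 1.30-fold. Wild type had a mean of 2.35 ± 0.25 (SD, n = 2) and ECAT11EGFP/EGFP one of 2.30 ± 0.15 (SD, n = 3), a difference of -0.045 (SE 0.19, 95% interval -0.55 to 0.46, limma adjusted p = 0.984). A dimmer probe gave -0.81, -1.01, -0.93, -0.76 and -0.84 in the same order of lines, also with overlap and with #620-2 lowest (difference 0.067, limma adjusted p = 0.972). Trp53 has a processed pseudogene in the mouse genome, and the part of the signal that it may give was not tested.

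The genes on chromosome 11 did not keep 1 level across lines. The median of 1714 chromosome 11 probes, each minus its own mean over the lines, lay at 0.17 in RF8, -0.25 in #620-2, -0.0018 in #620-6, -0.074 in #757-1 and 0.15 in #757-2. Trp53 lies on this chromosome, and its brightest probe was likewise highest in RF8 and #757-2. Its dimmer probe was highest in #757-1, at -0.76, and lowest in #620-2, at -1.01. Ccng1 lies on chromosome 11 too, and its brightest probe was highest in the #620 lines, while its second probe was lowest in #620-2 like the chromosome median. With each array centred by chromosome, the Trp53 difference between genotypes was -0.11 (limma adjusted p = 0.910).

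**Figure D2:**
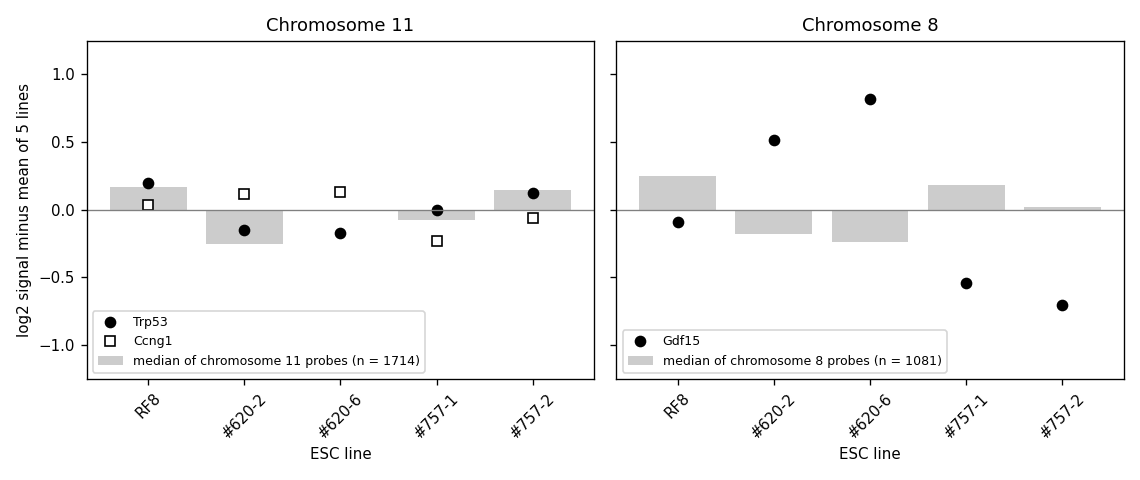
Bars show, for each ESC line, the median over probes of chromosome 11 (1714 probes, left) or chromosome 8 (1081 probes, right). The probes are those well above background on all 5 arrays, each minus its own mean over the 5 lines, on the log2 scale. Points are members on those chromosomes, by the brightest probe. Trp53 has the sign of the chromosome 11 bar in every line, but the bar of #620-6 is only -0.0018. In #757-1 Trp53 is at 2.32, which is also its rounded mean over the lines. Gdf15 has the opposite sign to the chromosome 8 bar in every line.

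Mdm2, the ligase that marks p53 for degradation, was at 1.96 in RF8, 2.44 in #620-2, 2.39 in #620-6, 1.94 in #757-1 and 1.95 in #757-2. Both #620 lines were high and the other 3 lay within a narrow band, so each genotype held both levels. The difference between genotypes was -0.11 (SE 0.25, 95% interval -0.76 to 0.55, limma adjusted p = 0.971). The second Mdm2 probe, whose sequence is given above, read -0.36, 0.29, -0.020, -0.46 and -0.58 in the same order of lines. It too was highest in #620-2 and then #620-6 (difference -0.32, limma adjusted p = 0.899).

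Ccng1 encodes cyclin G1, which acts with a phosphatase on Mdm2 and so feeds back on p53. Its brightest probe was at 4.09 in RF8, 4.18 in #620-2, 4.19 in #620-6, 3.83 in #757-1 and 4.0 in #757-2, a span of 1.29-fold. The genotypes overlapped, and the #757 lines were the lowest. Its probes differed in sign: the difference was -0.13 by this probe (SE 0.18, limma adjusted p = 0.942) and 0.21 by the other (SE 0.18, limma adjusted p = 0.890). By the other probe #620-2 was the lowest line, at 3.23 against 3.47 to 3.72.

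Trp53inp1, a stress-induced protein that enhances p53 activity and takes part in autophagy, was at 3.85 in RF8, 4.63 in #620-2, 4.48 in #620-6, 4.50 in #757-1 and 4.32 in #757-2. RF8 was the lowest line and the other 4 lay close together, with #620-2 above all ECAT11EGFP/EGFP lines. The difference between genotypes was 0.19 (SE 0.27, 95% interval -0.53 to 0.92, limma adjusted p = 0.946). The probe with the tandem repeat was likewise lowest in RF8, at 1.02, and highest in #620-2, at 1.95.

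Cdkn1a encodes p21, the inhibitor of cyclin-dependent kinases through which p53 arrests the cell cycle, and carries the paired decamers shown above. It was at -0.34 in RF8, 0.30 in #620-2, 0.42 in #620-6, -0.11 in #757-1 and -0.48 in #757-2. The #620 lines were the highest and the genotypes overlapped fully, since the highest and the lowest line were both ECAT11EGFP/EGFP. The span was 1.87-fold, 0.90 on the log2 scale. The 9 or 10 spots of the probe on one array had SDs of 0.035 to 0.054, which leave out the variation of culture, RNA and labelling. The means were -0.018 ± 0.45 (SD, n = 2) and -0.057 ± 0.45 (SD, n = 3), a difference of -0.039 (SE 0.36, 95% interval -0.98 to 0.91, limma adjusted p = 0.994). With the slide as a block it was 0.44 (limma adjusted p = 0.794).

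Pmaip1, which encodes Noxa, a BH3-only protein that neutralises Mcl1 and so favours apoptosis, varied most. It was at 1.18 in RF8, 3.37 in #620-2, 3.81 in #620-6, 3.94 in #757-1 and 3.79 in #757-2. RF8 alone was low, 4.58-fold below the next lowest line, while the other 4 lines spanned 0.56 on the log2 scale. The genotypes did not overlap, with the wild-type line #620-2 the next below the ECAT11EGFP/EGFP lines. Wild type had a mean of 2.28 ± 1.55 (SD, n = 2) and ECAT11EGFP/EGFP one of 3.84 ± 0.082 (SD, n = 3). The difference was 1.57, or 2.97-fold (SE 0.67, 95% interval -0.20 to 3.34, limma adjusted p = 0.714). The size of that difference was set by RF8: it was 0.47 without RF8 and 2.67 without #620-2, with an adjusted p of 0.697 and 0.300 in limma. RF8 is labelled male, as are #757-1 and #757-2, and the part of sex in the Pmaip1 level was not tested. RF8 is also the only line of 129sv origin and the only one not derived from these intercrosses, and those cannot be told apart. Marker levels also differed in RF8. The log2 of the summed signal of the 8 ESC markers was 8.44 in RF8 and 8.78 to 8.87 in the other lines. Dppa5a made most of that sum, at 8.07 in RF8 and 8.33 to 8.42 in the other lines. Nanog (2.53), Esrrb (2.56), Sox2 and Dppa5a were lowest in RF8. Pou5f1 was lowest in #757-2, at 2.54 against 2.56 in RF8. Fbxo15 was lowest in #620-2, Utf1 in #620-6 and Tdgf1 in #757-1. For 12 differentiation markers the sum was 2.71 in RF8 and 0.97 to 2.35 elsewhere. Nes made most of that sum in RF8, at 2.12, and was at -0.85 to 1.41 elsewhere. The median of the 12 was highest in #620-2, at -2.79. The part of these in the Pmaip1 level was not tested.

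Bbc3, which encodes Puma, another BH3-only protein and a strong p53 target, was at 3.74 in RF8, 4.34 in #620-2, 3.36 in #620-6, 3.91 in #757-1 and 3.48 in #757-2. The highest line was wild type and the lowest ECAT11EGFP/EGFP, and the genotypes overlapped through #757-1. The difference was -0.46 (SE 0.28, 95% interval -1.21 to 0.29, limma adjusted p = 0.824). It was -0.76 without RF8 and -0.16 without #620-2.

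Bax, the effector that permeabilises the outer mitochondrial membrane, had the narrowest span of the death genes among the 10, at 4.32 in RF8, 4.72 in #620-2, 4.45 in #620-6, 4.61 in #757-1 and 4.43 in #757-2. RF8 was lowest and #620-2 highest, both wild type. The difference between genotypes was -0.023 (SE 0.19, 95% interval -0.53 to 0.48, limma adjusted p = 0.993).

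Perp encodes a tetraspan membrane protein of desmosomes that is also a p53 effector in apoptosis. It was at 3.05 in RF8, 3.48 in #620-2, 2.56 in #620-6, 2.76 in #757-1 and 2.37 in #757-2. Both wild-type lines were above all 3 ECAT11EGFP/EGFP lines, and RF8 and #757-1 were the nearest lines of the 2 genotypes. Wild type had a mean of 3.26 ± 0.30 (SD, n = 2) and ECAT11EGFP/EGFP one of 2.56 ± 0.20 (SD, n = 3). The difference was -0.70 (SE 0.22, 95% interval -1.28 to -0.12, limma adjusted p = 0.579). It did not pass the test over all probes, and its unadjusted p in limma was 0.0271. The difference stayed between -0.92 and -0.49 when single lines were left out, and its unadjusted p rose to 0.126 without #620-2, 0.0618 without #620-6 and 0.0896 without #757-2. With the slide as a block the difference was -0.71 (unadjusted p = 0.0988 in limma).

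Gdf15, a secreted ligand of the TGF-beta superfamily that rises in many kinds of stress, was at -0.84 in RF8, -0.23 in #620-2, 0.075 in #620-6, -1.29 in #757-1 and -1.45 in #757-2. The #620 lines were the highest and the #757 lines the lowest, so that ECAT11EGFP/EGFP lines held both ends. The span was 2.87-fold, and the difference between genotypes was -0.35 (SE 0.55, 95% interval -1.80 to 1.10, limma adjusted p = 0.953). With the slide as a block it turned to 0.61 (limma adjusted p = 0.705), and without #620-6 it was -0.83 and without #620-2 -0.048. The chromosome 8 median moved the other way, at 0.25 in RF8, -0.18 in #620-2, -0.24 in #620-6, 0.18 in #757-1 and 0.017 in #757-2.

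**Figure D3:**
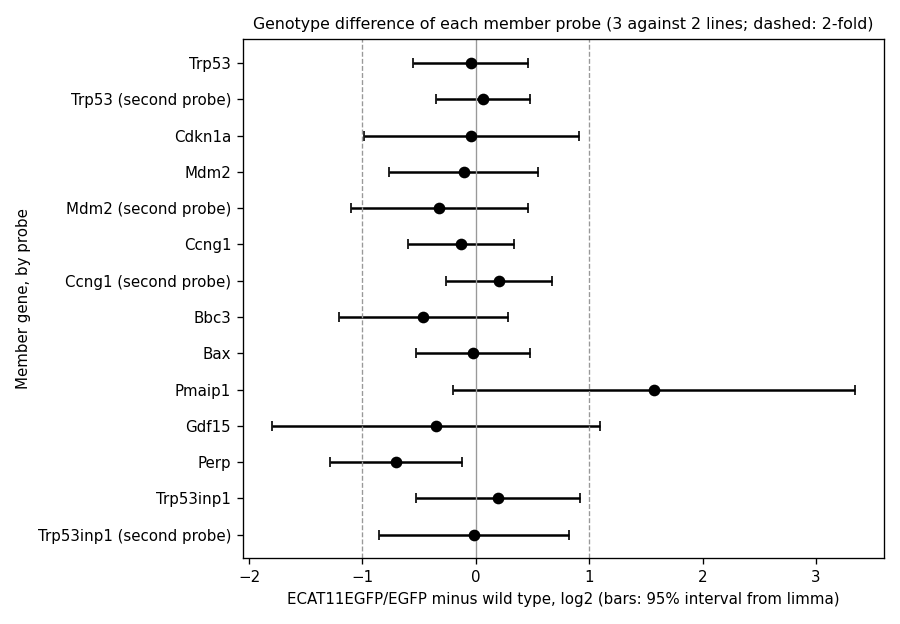
Difference of each member probe between genotypes, ECAT11EGFP/EGFP (3 lines) minus wild type (2 lines), on the log2 scale, with 95% intervals from limma and dashed lines at 2-fold. The interval of Perp lies below 0, from -1.28 to -0.12, and the widest is that of Pmaip1, from -0.20 to 3.34.

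The intervals show how far the data reach. For Trp53, Cdkn1a, Mdm2, Ccng1, Bax and Trp53inp1 the interval of the brightest probe lay within 2-fold in both directions. For Bbc3, Pmaip1, Gdf15 and Perp it reached past 2-fold, so these lines leave changes beyond 2-fold within the interval. The interval of the second Mdm2 probe, from -1.10 to 0.46, also reached past 2-fold.

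The members differed among themselves in how much they varied over lines. Among the 14070 genes well above background on all arrays, the highest and the lowest line were 0.60 apart on the log2 scale at the median, and 1.59 apart at the 90th percentile. The range of Pmaip1, 2.76, was wider than that of 97.9% of these genes and the range of Gdf15, 1.52, wider than 88.9%. Perp (1.11), Bbc3 (0.99), Cdkn1a (0.90) and Trp53inp1 (0.77) lay above the median gene. Bax (0.40), Trp53 (0.38) and Ccng1 (0.36) lay below it, as did the second probes of Trp53 (0.25) and Ccng1 (0.49). Mdm2 fell on either side, with 0.50 by its brightest probe and 0.88 by the other, wider than 39.7% and 69.2% of genes.

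**Figure D4:**
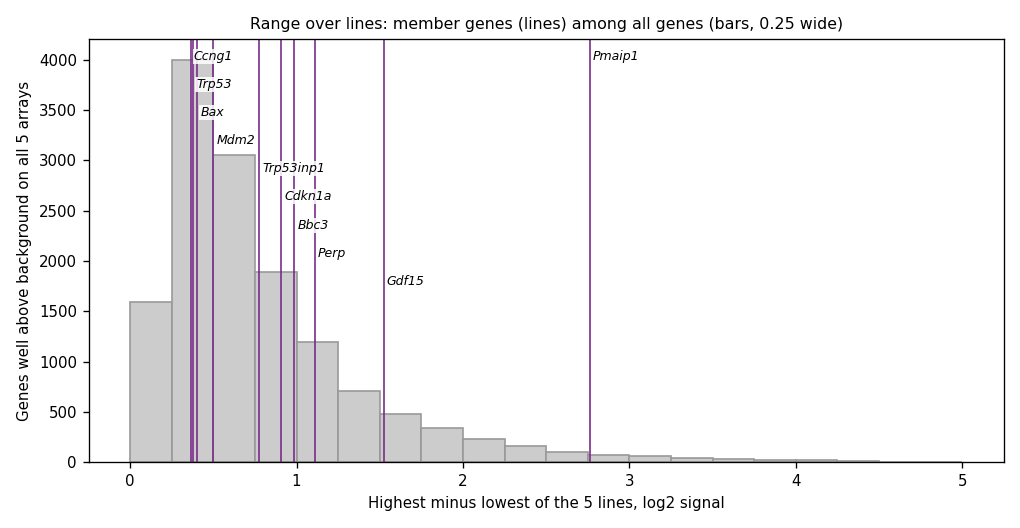
Number of genes (bars, 0.25 wide) by the difference between the highest and the lowest of the 5 ESC lines in log2 signal, for the 14070 genes well above background on all arrays, with vertical lines at the brightest probes of the 10 members. Ccng1, Trp53, Bax and Mdm2 fall in the bulk of genes between 0.36 and 0.50, and Pmaip1 lies far to the right at 2.76.

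By line, #620-2 was the highest for 5 of the 10 members (Mdm2, Bbc3, Bax, Perp and Trp53inp1) and above the mean of the lines for 9. Over all 14070 genes #620-2 was the highest for 20.8% and above the mean of the lines for 46.3%. The line #757-2 was the highest for 0 members and the lowest for 3, beside 12.6% and 12.8% of all 14070 genes. For 4 members, Cdkn1a, Mdm2, Ccng1 and Gdf15, the 2 highest lines were #620-2 and #620-6, which differ in genotype and share their sex label and slide. That order held for 17.4% of all 14070 genes. For Ccng1 it held for the brightest probe alone, since the other had #620-2 as the lowest line, and over all 14 member probes it held for 5. For 3 members, Bbc3, Bax and Trp53inp1, the highest pair was #620-2 and #757-1, which differ in genotype, sex label and slide. That pair was highest for 7.47% of all 14070 genes.

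Markers of other cells also differed between lines. For 12 fibroblast and feeder markers the log2 of the summed signal stood at 4.07 in RF8, 5.88 in #620-2 and 5.94 in #620-6. It was 1.52 in #757-1 and 2.37 in #757-2, and 8 of the 12 were highest in the #620 lines. All 12 were well above background in the #620 lines, 11 in RF8, 8 in #757-1 and 9 in #757-2. In the #620 lines S100a4 made most of the sum, at 5.61 and 5.70 there, -0.068 in RF8, -1.67 in #757-1 and -1.41 in #757-2. Without S100a4, a choice made after its values were seen, RF8 had the highest sum, at 3.98 against 3.36 in #620-2, 3.29 in #620-6, 1.36 in #757-1 and 2.26 in #757-2. Col1a1, Col1a2, Pdgfrb and Postn were highest in RF8, with Col1a1 at 2.97 there and 0.80 and 0.56 in the #620 lines. The median of X chromosome probes, each minus its own mean, was highest in #620-2, at 0.19, and #620-6, at 0.44, against -0.23 to -0.19 in the other lines. The part of these in the levels of Cdkn1a, Mdm2, Ccng1 and Gdf15 was not tested.

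**Figure D5:**
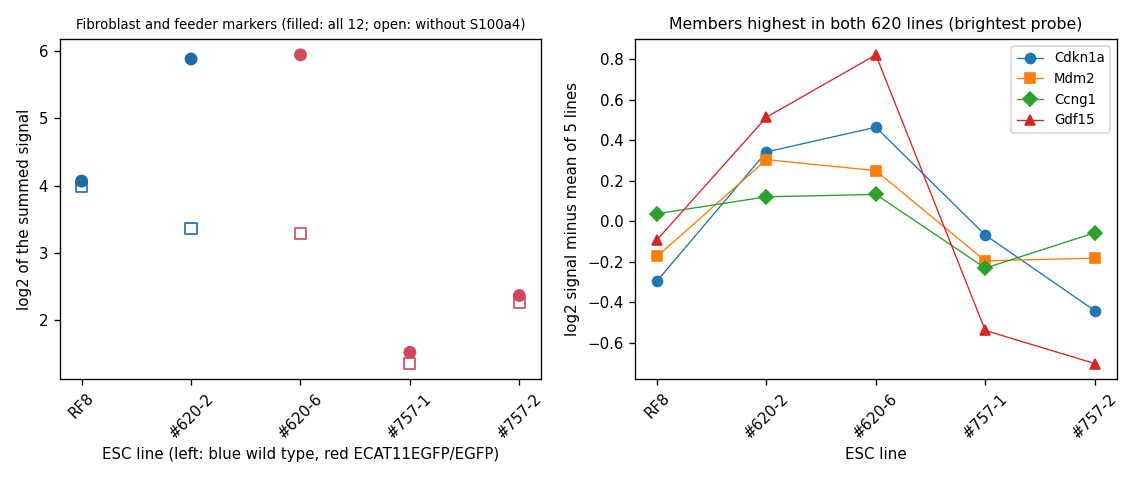
Left, log2 of the summed signal of 12 fibroblast and feeder markers in each ESC line, with blue for wild type and red for ECAT11EGFP/EGFP. Right, log2 signal minus the mean of the 5 lines for the 4 members whose 2 highest lines were #620-2 and #620-6, by the brightest probe of each. The marker sums are 5.88 and 5.94 in those lines with all 12 markers (filled), and without S100a4 (open squares) RF8 is highest at 3.98.

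Within the #620 pair, which share strain, sex label and slide but not genotype, 1 array each gives no test. The member with the widest gap was Bbc3, 0.99 lower in #620-6 than in #620-2 on the log2 scale, since its values there were 3.36 and 4.34. Perp was lower by a similar amount, 2.56 against 3.48. Cdkn1a differed by 0.12 and Trp53 by -0.028 (#620-6 minus #620-2). Mdm2 differed by -0.054 by its brightest probe and by -0.31 by the other.

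Other genes of the pathway were read from lists of regulators, further targets and neighbouring families. Of 24 regulators 23 were measured, and 0 were called. Their median difference was 0.036, with 15 higher and 8 lower in ECAT11EGFP/EGFP, and 8 had genotypes that did not overlap, 7 of them higher, beside 23.6% of all probes either way and 11.2% higher. Cdkn2a, whose locus encodes p16 and the Mdm2 inhibitor Arf, was at -2.51, -3.10, -2.10, -2.20 and -2.38 in the order RF8, #620-2, #620-6, #757-1 and #757-2. All ECAT11EGFP/EGFP lines were above both wild-type lines, but the difference of 0.58 had an adjusted p of 0.690 in limma. Atm, the kinase that signals double-strand breaks to p53, was higher by 0.60, carried by the #757 lines (adjusted p = 0.818). Trp73, a relative of p53, and the acetyltransferase Kat5 had the lowest differences, -0.63 and -0.26. Trp63 is counted among the 7 higher genes without overlap. It was well above background in 1 line, #620-6, so no level is given. Neither its separation nor its unadjusted p of 0.0142 in limma is read as a result.

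Of 20 further targets in arrest and repair, 0 were called, 6 were higher and 14 lower, and the median was -0.15. The genotypes did not overlap for 3 of the 20, beside 23.6% of all probes. Plk2, a kinase of the cell cycle, had the only unadjusted p under 0.05 (0.0301, adjusted p = 0.588 in limma). It was at 1.29 in RF8, 1.48 in #620-2, 1.03 in #620-6, 0.76 in #757-1 and 0.73 in #757-2, a difference of -0.55 with no overlap. Ephx1, an epoxide hydrolase, followed the #620 lines, at 0.075 and -0.11 there and between -2.35 and -1.92 elsewhere. Gadd45a, a growth arrest gene, differed by 0.28 and Plk3, a stress-responsive kinase, by 0.57, neither past the test. In 10 of the 20 genes the #620 lines were the highest pair, beside 18.8% of all probes kept. That pair was highest for 4 of the 23 regulators measured and for 1 of the 12 further death genes below. It was highest for 4 of the 18 BCL2 family and caspase genes and 2 of the 5 other inhibitors of cyclin-dependent kinases.

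Of 12 further death genes 0 were called, with 4 higher and 8 lower and a median of -0.29. Fas, the death receptor, was at -2.49 in RF8, -2.19 in #620-2, -2.79 in #620-6, -3.85 in #757-1 and -3.81 in #757-2. The wild-type lines were the highest, and the #757 lines, on the other slide, were well below #620-6 of the same genotype (difference -1.14, unadjusted p = 0.0377, adjusted p = 0.614 in limma). Trp53i11 had a difference of -0.73, Casp6, an executioner caspase, of 0.11, and Tnfrsf10b, a second death receptor, of 0.14. For 5 of these 12 genes the genotypes did not overlap, all lower in ECAT11EGFP/EGFP, where 12.4% of all probes were separated in that direction.

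Of 19 genes of the BCL2 family and caspases 18 were measured, and 0 were called, with 7 higher, 11 lower and a median of -0.20. The genotypes did not overlap for 3 of the 18, beside 23.6% of all probes. The initiator caspase Casp8 (-0.65) and the BH3-only gene Bmf (-0.63) had the lowest differences. Bcl2l11, which encodes Bim, had the highest (0.28), followed by Bcl2l2 (0.10). Of 5 other inhibitors of cyclin-dependent kinases 0 were called, the median was -0.19 and the genotypes did not overlap for 1. Cdkn1c, an imprinted relative of Cdkn1a, was at 3.73, 3.51, 2.06, 3.29 and 2.79 in the order of lines above, lower in all ECAT11EGFP/EGFP lines (difference -0.91, adjusted p = 0.720 in limma). Cdkn2b differed by -0.31 and Cdkn2d by 0.028. The median of these 5 inhibitors was -0.62 without RF8 and 0.19 without #620-2.

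The genes whose pattern over the 5 lines was most like that of Cdkn1a were sought among 12105 genes by the root mean square difference of their log2 values, each minus its mean. They were Plpp6 (0.054), Gpcpd1 (0.059), Nrgn (0.061), Rab42 (0.063) and the X-linked Eif2s3x (0.068). The choice by likeness sets their order of lines. For Pmaip1 they were Rpgrip1 (0.091), 2810429I04Rik (0.22), Aoah (0.27), Crisp1 (0.30) and 2610524H06Rik (0.33). By the same choice they share the low value in RF8, and Rpgrip1 was at -0.18 there against 2.10 to 2.81 in the other lines.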

How the data were processed

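RNA of 5 ESC lines was isolated with Trizol, labelled with Cy3 and put on one-colour Agilent arrays, 1 for each line. The authors deposited scanner output of Feature Extraction 9.5.3.1 with a background-corrected intensity for each of 45018 spots, not normalized between arrays. A second deposited table holds log2 values made from these arrays. Its differences between arrays had a slope of 1.00 on the scanner values, and its column medians lay between -0.10 and 0.077, so it is on a log2 scale with each probe shifted by a constant whose rule is not given in the sources used here. The methods name GeneSpring GX and scaling to the 75th percentile.

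The 1639 control spots were left out, and spots marked as non-uniform or population outliers (0.335%) were not used. Intensities were scaled to the 75th percentile of the array, put on the log2 scale and averaged over the spots of a probe. The 28972 probes that were present in 1 line or more entered the fit, made in limma 3.58.1 (R 4.3.3) with the genotype as the term and Benjamini-Hochberg adjustment. Code was tested on simulated data. A gene is given by its brightest probe. Where no gene of a pathway list was called, up to 2 of the largest differences each way were named, among genes well above background on all 5 arrays. The 5 genes most like Cdkn1a, and the 5 most like the member with the widest range, were named too. The number of arrays limits the precision. With 1 array per line, p-values rest on a spread in which line, culture, RNA, labelling and array are mixed.

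Of the probes, 22951 were named through RefSeq accessions (GRCm38.p6) and 9768 through symbols or synonyms, and 8455 kept the name in the files. Probe positions are those of the files (mm7). Atr and Bcl2a1a matched no probe. The members and lists were chosen with earlier results of these data known. Alternatives were normexp (offset 50), quantile normalization, the deposited table, other filters on dim probes, marked spots kept, the slide as a block, the methods' t-test, the mean over probes of a gene, centring by chromosome and leaving out each line. Files were read with the R package data.table (version 1.17.8) and pandas 2.3.3, and figures drawn with matplotlib 3.10.9.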

Additional observations from a re-analysis of the deposited data

How the results depend on the processing

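No member was called under any of the 15 alternatives, and the lowest adjusted p of a member was 0.300 in limma (Pmaip1 without #620-2). Over all probes, the single call, Ubd, was made again with the deposited table, with marked spots kept and with centring by chromosome. There were 0 calls with normexp, with quantile normalization, without a filter on dim probes, with only probes well above background on all 5 arrays, with the slide as a block and by the methods' t-test after adjustment, and 0 to 0 when single lines were left out. In limma, probes past 2-fold at an unadjusted p under 0.05 then numbered 258, 853, 1826, 382 and 1748 in the order of the first 5 of these settings, and 838 to 1563 without single lines, against 966 in the fit reported. The methods' t-test passed 578 before adjustment.

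Signs turned for 7 members, none of them called. Under the slide block, differences were 0.44 for Cdkn1a, 0.18 for Mdm2, 0.053 for Ccng1 and 0.61 for Gdf15. Without RF8 they were 0.13 for Trp53 and -0.19 for Trp53inp1. Without #620-2 they were 0.28 for Cdkn1a, 0.13 for Mdm2 and 0.18 for Bax. Without #620-6 Trp53 was at 0.033, and without #757-2 Cdkn1a was at 0.17 and Bax at 0.0092. With the mean over probes, Trp53 was at 0.011 and Ccng1 at 0.037. Without single lines the ranges of these genes were -0.22 to 0.13 for Trp53, -0.36 to 0.28 for Cdkn1a, -0.35 to 0.13 for Mdm2, -0.22 to 0.18 for Bax and -0.19 to 0.58 for Trp53inp1. The cause was not tested. The median of the members was between -0.29 and 0.041 without single lines and 0.12 with the slide block. The median of the other inhibitors of cyclin-dependent kinases was -0.62 to 0.19 without single lines. Without a filter the median of all probes was 0.11. The block compares genotypes within slide 1 only, since slide 2 held ECAT11EGFP/EGFP lines alone. No paired analysis was possible because 1 pair of lines alone, #620-2 and #620-6, shares a number across genotypes. Where leaving out a line left wild type with 1 array, that array was assumed to vary like the other group. Dim probes were less often measured on slide 2, but every member probe was well above background there.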
